A study of Mus musculus with 31 samples.

Results

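The small nucleolar, Cajal body and small nuclear RNAs examined here were the rows of the gene table whose mouse symbol starts with Snord, Snora, Scarna or Rnu and which held at least 10 counts in at least 4 of the 31 libraries. Of 55492 rows in the table, 172 carried such a symbol and 145 met the count floor, namely 77 Snord, 41 Snora, 9 Scarna and 18 Rnu rows. The members were thus chosen by their counts over all libraries; the rule itself uses no difference between groups, but it was set with earlier results of these data known. The 145 rows lie at 137 loci, because 8 loci are annotated by 2 overlapping rows each. The annotation calls 130 of them snoRNA, 7 scaRNA, 7 snRNA and 1 miRNA. Just inside the floor were Snord92, with 10 or more counts in 5 libraries, and Snord38a and Rnu7, with 7 libraries each. Just outside it were Rnu1b1 with 3 libraries, Snord23 with 2 and Rnu1b2 with 1, among 27 rows left out.

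The libraries are total-RNA sequencing of long-term hematopoietic stem cells. These LT-HSCs were sorted for cKit, Sca1 and CD150 and against lineage markers and CD48, from mice carrying a JAK2-V617F myeloproliferative neoplasm. Donor marrow carried SclCre, a Cre recombinase driven by regulatory sequence of the hematopoietic gene Scl, with the FF1 transgene and GFP. The VFDM donors additionally had Dnmt3Δ/Δ, the deletion of the DNA methyltransferase gene Dnmt3a, and the VF donors did not. All recipients were wild type and also received a 10-fold excess of wild-type marrow, so wild-type donor cells were given to every host, and GFP is not among the sort markers the labels give. Treatment began 4 weeks after transplantation and lasted 8 weeks. It was pegylated interferon alpha at 25 µg/kg under the skin each week (IFN), 5-azacytidine at 2 mg/kg into the peritoneum each day (AZA), both drugs (COMBO) or vehicle. There were 4 libraries each of VFDM IFN, VFDM AZA, VFDM vehicle, VF IFN, VF AZA, VF COMBO and VF vehicle, and 3 of VFDM COMBO (replicates 2, 3 and 4). Whether each library is a separate animal is not in the labels, so p-values measure the spread between libraries, which may be technical.

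Small nucleolar RNAs (snoRNAs) guide protein complexes to ribosomal RNA. Box C/D snoRNAs (Snord), bound by fibrillarin, guide ribose methylation, and box H/ACA snoRNAs (Snora), bound by dyskerin, guide pseudouridylation. A few, such as the box C/D RNA U3 (Rnu3 genes) and the H/ACA RNA U17 (Snora73 genes), serve in cleavage of the ribosomal RNA precursor. Small Cajal body RNAs (Scarna) modify spliceosomal RNAs in the same way, and the remaining Rnu genes encode spliceosomal U RNAs or the histone-processing U7 RNA, except Rnu73b, which the annotation calls a snoRNA. Most vertebrate snoRNAs are cut out of introns of host genes, many of them ribosomal protein genes, whereas U3 has promoters of its own. Of the 145 rows, 67 lie within an intron of a same-strand gene, 62 overlap an annotated exon of one, and 16 have no same-strand host. The 86 host genes include 24 Rpl or Rps genes, which hold 34 of the rows.

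The sequences of the RNAs whose values carry the comparisons, taken from the GENCODE vM21 transcripts on GRCm38, are given 5′ to 3′ as DNA letters. Capitals mark the box C hexamer TGATGA and the last box D tetramer CTGA, or, in the H/ACA RNA, the ACA near the 3′ end. The first pair are the U3 RNA of Rnu3a (chr10:40258467-40258680, plus strand, no host) and that of Rnu3b1 (chr11:87443237-87443452, plus strand, annotated in an intron of Tex14).
Rnu3a: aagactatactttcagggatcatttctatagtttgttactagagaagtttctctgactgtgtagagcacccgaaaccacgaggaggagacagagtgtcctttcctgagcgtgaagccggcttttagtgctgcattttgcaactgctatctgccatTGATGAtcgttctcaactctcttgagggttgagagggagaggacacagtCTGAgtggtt
Rnu3b1: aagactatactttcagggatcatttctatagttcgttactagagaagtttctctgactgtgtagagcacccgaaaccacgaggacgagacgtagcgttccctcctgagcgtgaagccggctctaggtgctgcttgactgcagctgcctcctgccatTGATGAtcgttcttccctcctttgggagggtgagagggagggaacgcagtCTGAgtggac
Snord15a (chr7:99482785-99482932, minus strand, in an intron of Rps3) and Snord15b (chr7:99479563-99479707, minus strand, overlapping an Rps3 exon) guide methylation of the large-subunit ribosomal RNA.
Snord15a: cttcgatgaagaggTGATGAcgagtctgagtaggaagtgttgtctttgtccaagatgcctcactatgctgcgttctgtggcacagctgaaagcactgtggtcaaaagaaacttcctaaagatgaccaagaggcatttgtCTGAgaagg
Snord15b: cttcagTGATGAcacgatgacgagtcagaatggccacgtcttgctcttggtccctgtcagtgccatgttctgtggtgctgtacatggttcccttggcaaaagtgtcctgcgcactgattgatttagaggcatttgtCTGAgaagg
Snord17 (chr2:144265979-144266216, minus strand, in an intron of Snx5) is the longest Snord row, and Scarna2 (chr3:108554338-108554751, minus strand, with no host) is the longest row of all and guides methylation of the U2 spliceosomal RNA. Of Scarna2 the last 100 bases, which hold both boxes, are shown (chr3:108554338-108554437).
Snord17: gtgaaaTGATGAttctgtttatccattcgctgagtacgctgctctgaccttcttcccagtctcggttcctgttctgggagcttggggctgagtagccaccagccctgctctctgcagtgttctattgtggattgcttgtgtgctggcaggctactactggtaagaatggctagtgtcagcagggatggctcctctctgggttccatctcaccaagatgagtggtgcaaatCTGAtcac
Scarna2: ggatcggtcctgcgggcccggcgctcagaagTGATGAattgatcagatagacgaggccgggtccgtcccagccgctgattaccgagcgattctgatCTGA
Snora73b (chr4:132352322-132352526, minus strand, in an intron of Rcc1) is a U17 RNA, and Snord95 (chr11:48803139-48803206, plus strand, overlapping an exon of Rack1) is a short box C/D RNA.
Snora73b: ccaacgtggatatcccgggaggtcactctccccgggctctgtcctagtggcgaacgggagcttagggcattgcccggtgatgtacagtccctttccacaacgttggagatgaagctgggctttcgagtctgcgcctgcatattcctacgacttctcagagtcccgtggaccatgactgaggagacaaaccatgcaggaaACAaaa
Snord95: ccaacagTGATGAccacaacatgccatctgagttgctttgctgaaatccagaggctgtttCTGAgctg
The boxes were found across the classes by searching for the exact letters on the annotated strand. TGATGA stood in the first 25 bases of 48 of 76 Snord loci (63.2%) and of none of 39 Snora loci. CTGA stood in the last 25 bases of 75 Snord loci (98.7%; 6.58% on the opposite strand) and of 12.8% of Snora loci. ACA stood in the last 8 bases of 37 Snora loci (94.9%) and of 9.21% of Snord loci. The 4 copies Rnu3b1, Rnu3b2, Rnu3b3 and Rnu3b4 were identical over all 216 bases, so the share of reads given to each copy depends on how reads matching several places were counted, which no source used here states. Rnu3a was 85.2% identical to them, with 30 mismatches and 2 gaps, and Snord15a and Snord15b were 63.2% identical. In all, 25 members overlap another small-RNA row and 13 overlap a gene on the opposite strand, among them Snora73b (Gm17300) and Rnu5g (Parp16). No source used here states the strand setting of the counting, and for those 13 the reads from both strands cannot be told apart.

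Levels are given as CPM, counts divided by the library size after TMM scaling, and per kilobase where RNAs of different length are compared. Per kilobase, the highest mean levels over the 31 libraries belonged to Snord15a (524.4), Snord15b (498.3), Scarna2 (257.5), Snord17 (246.5), Scarna10 (196.6), Scarna9 (141.2), Rnu3b3 (140.4 and 139.7 in its 2 rows), Scarna13 (120.1) and Rnu3a (106.7). These means include the VF vehicle libraries described next. The RNAs were 62 to 414 bases long, with a median of 108. The 10 loci with the most counts held 66.5% of all member counts, and 21 of the 145 rows had 10 or more counts in every library.

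Total counts ran from 17780000 to 73910000 per library. The 145 rows took 0.1416%, 0.4829%, 0.05969% and 0.1512% of the counts in VF vehicle libraries 1, 2, 3 and 4, against 0.03804% to 0.07902% in the other 27 libraries. VF vehicle libraries 1, 2 and 4 were therefore above every other library, and library 3 lay within the range of the 27. The same 3 libraries stood apart in other small RNA. Other small-RNA and ribosomal RNA rows of the nuclear genome took 22.19%, 24.44%, 8.434% and 37.34% of counts in VF vehicle libraries 1 to 4, against 4.977% to 10.42% elsewhere. Mitochondrial rows took 1.823%, 9.537%, 11.8% and 0.8594% of counts in them, against 6.28% to 10.74% elsewhere, so that libraries 1 and 4 lay below that range, library 3 above it and library 2 inside it. The summed CPM of 13 LT-HSC marker genes was 1888 to 2105 in VF vehicle libraries, within the range of 1062 to 2813 of the other 27. The part of these differences in the results was not tested, nor was whether the libraries differ in RNA quality or preparation. A larger share of these RNAs in each cell and a larger share of cells rich in them cannot be told apart in bulk libraries. Dnmt3a, the deleted gene, had group medians of 107.1, 100.1, 51.54 and 119.0 CPM in VFDM IFN, AZA, COMBO and vehicle and of 169.7, 195.5, 157.0 and 237.7 CPM in VF IFN, AZA, COMBO and vehicle. The library labelled VFDM IFN 3 had 162.1 CPM and lay among the VF libraries, and the library labelled VF COMBO 3 had 104.4 CPM and lay among the VFDM libraries.

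Each of the 4 classes was highest in VF vehicle library 2. The Snord rows summed to 664.6, 2325, 226 and 751.5 CPM in VF vehicle libraries 1 to 4, against 123.1 to 314.9 CPM in the other 27 libraries. The Scarna rows summed to 430.2, 1042, 197.7 and 544.4 CPM, against 94.05 to 233.6 CPM. The Rnu rows summed to 304.8, 1809, 70.33 and 679.6 CPM, against 32.46 to 113.4 CPM. For these 3 classes, libraries 1, 2 and 4 were above all 27 and library 3 was not. The Snora rows behaved differently, with sums of 128.7, 1240, 107.6 and 127.8 CPM in VF vehicle libraries 1 to 4, against 63.77 to 150.8 CPM elsewhere. For the Snora sum only library 2 left the range of the other libraries, although some single Snora rows did so in libraries 1 and 4 too. Outside VF vehicle, group means ran from 158.7 CPM (VF AZA) to 250.1 CPM (VFDM COMBO) for the Snord sum and from 43.45 CPM (VF AZA) to 85.63 CPM (VFDM COMBO) for the Rnu sum. These groups are named as the lowest and highest and differ in both genotype and treatment, so their distance is no test of either.

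**Figure D1:**
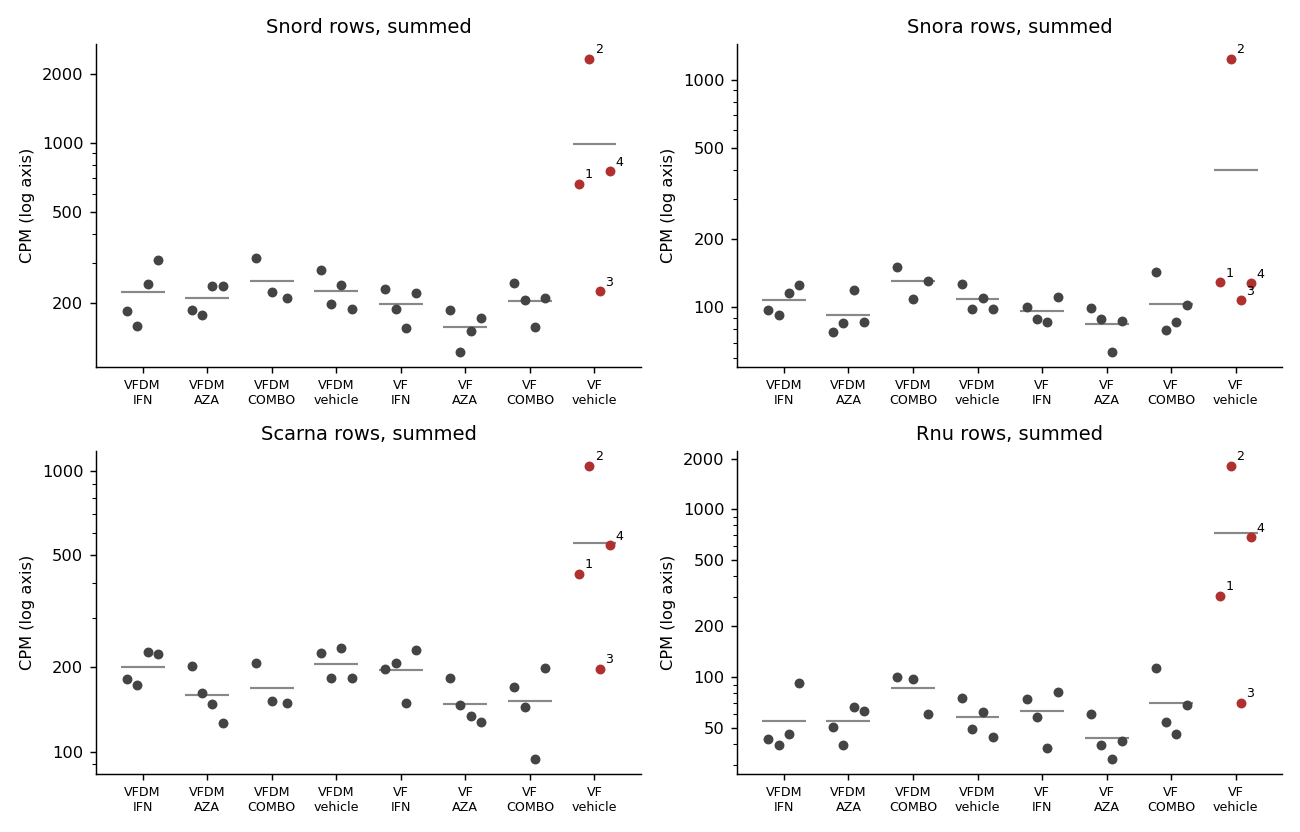
Summed CPM (log axis) of the Snord, Snora, Scarna and Rnu rows in each library, with groups along the x axis, 1 point a library and a line at each group mean; VF vehicle libraries are in red with their replicate numbers. VF vehicle library 2 is the highest point in every panel, libraries 1 and 4 are above the 27 other libraries in all panels but Snora, and library 3 lies among them.

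Counted member by member, VF vehicle library 2 was above all 27 libraries of the other groups in 75 of 145 rows (51.72%), against 5.87% of all tested rows. Library 1 was above all 27 in 22 rows (15.17%, against 8.06% of tested rows), library 4 in 27 rows (18.62%, against 12.4%) and library 3 in 0 rows (against 0.92%). In 18 rows libraries 1, 2 and 4 were all above the 27 (12.41%, against 1.63% of tested rows). These were both rows of Rnu3a, Rnu3b1, Rnu3b3 and Rnu3b4, with Snord15a, Snord15b, Snord17, Snord22, Snord57, Snord68, Snora69, Snora73b, Snora78 and Scarna2.

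The excess in VF vehicle library 2 went with the length of the RNA. The 48 shortest rows (62 to 81 bases) had a median ratio of 1.873 between library 2 and the median of the 27 other libraries. The 51 rows of 83 to 132 bases had a median ratio of 3.845, and the 46 rows of 133 to 414 bases one of 11.16. By class the median ratio was 2.588 for Snord, 6.726 for Snora, 3.369 for Scarna and 24.95 for Rnu rows. In VF vehicle library 3 the medians of the 3 length groups were 1.193, 1.2 and 1.22. The classes differ in length, so length and class cannot be told apart for most of these RNAs, but the longest row, Scarna2, had a lower ratio in library 2 than Scarna10, with 252.3 against a median of 83.54 CPM for Scarna2 and 518.5 against 46.48 CPM for Scarna10.

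**Figure D2:**
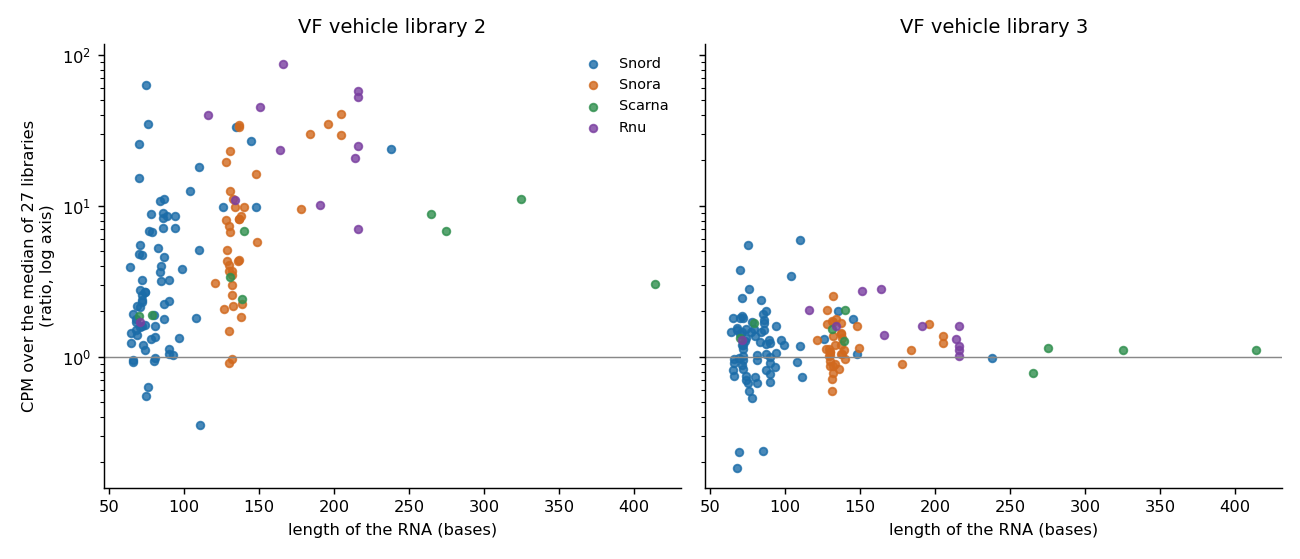
Ratio of the CPM in 1 VF vehicle library to the median CPM of the 27 libraries of the other groups (y axis, log scale) against the length of the RNA in bases (x axis), 1 point a locus, coloured by class, for libraries 2 (left) and 3 (right). In library 2 the median ratio was 1.873 among the shortest RNAs and 11.16 among the longest, and in library 3 points scatter around 1 at all lengths.

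**Figure D3:**
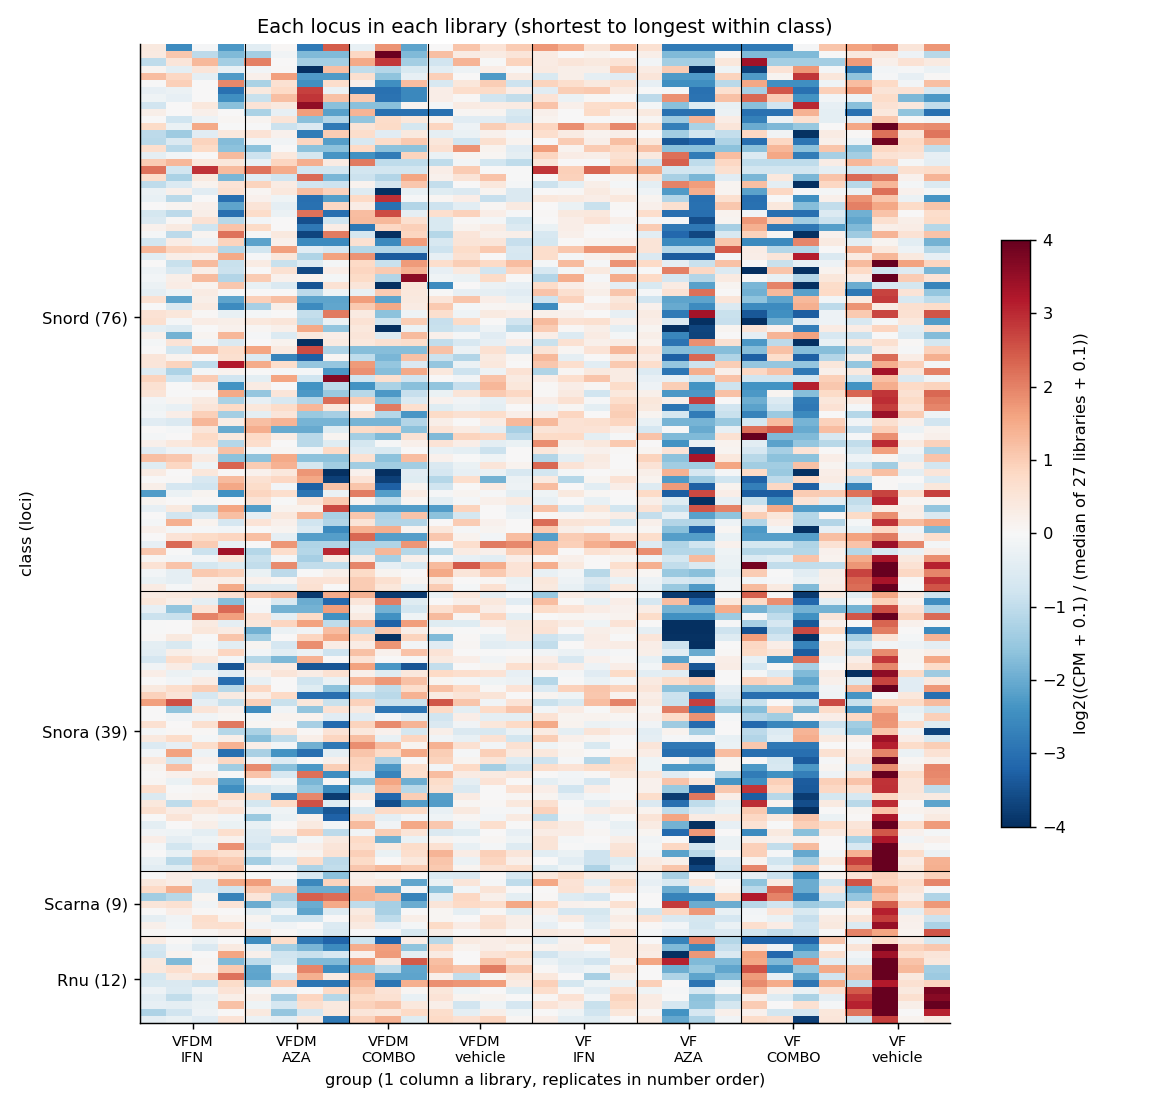
Level of 136 loci (down the page, by class and, within a class, from shortest to longest) in each of the 31 libraries (columns, grouped), as log2 of CPM plus 0.1 over the median of the 27 libraries outside VF vehicle plus 0.1, with colours limited at 4. The second VF vehicle column is red over most long RNAs, and the deepest blue cells lie mostly in AZA and COMBO libraries.

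Against VF vehicle, Rnu3a, Rnu3b1, Rnu3b3, Rnu3b4, Snord15a, Snord15b, Snord17 and Scarna2 were called lower under each treatment of VF cells. No member was called higher, although 35, 24 and 33 members had a positive log2 fold change in IFN, AZA and COMBO. Tests used edgeR's quasi-likelihood fit over all 31 libraries with Benjamini-Hochberg adjustment over 22172 rows, 144 of them members. Snord92 was too low to be tested. At an adjusted p under 0.05, 16 of the 144 members (11.1%, 12 loci) were lower in VF IFN, where 2.43% of all tested rows were called, 1.27% higher and 1.16% lower. In VF AZA, 17 members (11.8%, 13 loci) were lower, where 1.2% of all rows were called, 0.293% higher and 0.902% lower. In VF COMBO, 25 members (17.4%, 20 loci) were lower, where 8.29% of all rows were called, 4.16% higher and 4.13% lower. The members' median log2 fold change was -0.82, -1.51 and -1.51 for IFN, AZA and COMBO, against -0.02, -0.07 and -0.11 for all tested rows. The comparisons share the VF vehicle libraries. Beside these calls stands the excess of other small and ribosomal RNA in VF vehicle libraries 1, 2 and 4 given above. Marker lists of other lineages moved too. The summed level of 8 megakaryocyte genes was 1473 to 1878 CPM in VF IFN, 486 to 1049 CPM in VF AZA and 291.1 to 1595 CPM in VF COMBO, against 550.6 to 732.7 CPM in VF vehicle, and IFN did not overlap vehicle. That of 9 neutrophil genes was 75.99 to 307.2 CPM in VF IFN, against 37.48 to 70.98 CPM in VF vehicle, again with no overlap. Which cells these marker counts came from, and their part in the members' calls, was not tested.

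Among the box C/D RNAs, Snord15a had 63.15, 40.4, 31.11 and 38.88 CPM in VF IFN libraries, 40.25, 29.87, 27.93 and 41.98 CPM in VF AZA, 42.6, 44.52, 38.61 and 53.57 CPM in VF COMBO, and 232.9, 457.1, 48.34 and 344.9 CPM in VF vehicle. The AZA values were all below the vehicle values, whereas 1 IFN and 1 COMBO library exceeded vehicle library 3. It fell by 2.64 ± 0.38 on the log2 scale in IFN (SE; adjusted p = 5.45e-05, edgeR), by 2.95 ± 0.38 in AZA (adjusted p = 0.000236, edgeR) and by 2.59 ± 0.38 in COMBO (adjusted p = 8.23e-05, edgeR). Its neighbour Snord15b ran from 14.49 to 39.54 CPM in VF IFN, 9.81 to 33.4 CPM in VF AZA and 23.74 to 64.24 CPM in VF COMBO, against 208.9, 849.5, 56.31 and 123.8 CPM in VF vehicle. IFN and AZA did not overlap vehicle for Snord15b, while 1 COMBO library did. Its log2 fold changes were -3.50, -3.97 and -2.98 (adjusted p = 0.00185, 0.00159 and 0.00435, edgeR). Snord17 had 35.97, 22.18, 15.89 and 36.66 CPM in VF IFN, 22.04, 9.708, 5.574 and 24.64 CPM in VF AZA and 66.19, 35.07, 7.962 and 33.83 CPM in VF COMBO, against 129.9, 649.6, 26.85 and 156.2 CPM in VF vehicle. Here too library 3 lay within or close to the treated groups, and the other vehicle libraries lay above them.

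For U3, the precursor-cleavage RNA, Rnu3a had 15.96, 9.65, 7.128 and 14.48 CPM in VF IFN, 8.591, 9.445, 6.179 and 9.944 CPM in VF AZA, 24.35, 11.06, 8.058 and 14.43 CPM in VF COMBO, and 52.86, 199.6, 12.79 and 134.7 CPM in VF vehicle. Vehicle libraries 1, 2 and 4 were above every treated library and library 3 was among them. Rnu3a fell by 3.08 ± 0.49 on the log2 scale in IFN (SE; adjusted p = 0.000158, edgeR), by 3.55 ± 0.50 in AZA (adjusted p = 0.000236, edgeR) and by 2.79 ± 0.49 in COMBO (adjusted p = 0.000478, edgeR). The 2 annotated rows of Rnu3a had equal counts in all 31 libraries, and both are counted among the calls. Of the 4 identical Rnu3b copies, Rnu3b3 had log2 fold changes of -4.14, -4.94 and -3.98 and Rnu3b1 of -3.80, -4.64 and -4.62 in IFN, AZA and COMBO. Rnu3b4 was also called in all 3 comparisons and Rnu3b2 in none. In VF vehicle library 2 the 4 copies held 458.8 (Rnu3b3), 147.1 (Rnu3b1), 28.08 (Rnu3b4) and 17.41 CPM (Rnu3b2), unequal in spite of their identical sequence.

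Among the H/ACA RNAs, the U17 RNA Snora73b had 2.501, 1.824, 1.359 and 1.733 CPM in VF IFN, against 17.33, 100.8, 3.049 and 6.709 CPM in VF vehicle, with no overlap. It fell by 4.11 ± 0.88 on the log2 scale in IFN (SE; adjusted p = 0.00545, edgeR). It was also called lower in AZA and COMBO, and the second U17 gene, Snora73a, in IFN and AZA. Snora21, a pseudouridylation guide within an intron of Rpl23, had 3.715, 6.507, 2.894 and 11.65 CPM in VF IFN, against 9.47, 224.2, 7.049 and 7.693 CPM in VF vehicle. Its values overlapped, and its call in IFN (log2 fold change -3.32, adjusted p = 0.04, edgeR) came with a single high vehicle library. Snora74a (called in all 3 comparisons), Snora57 (AZA), Snora16a and Snora69 (COMBO) completed the H/ACA RNAs that fell.

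Of the 9 scaRNA rows, Scarna2 was called in all 3 comparisons. It had 110.2, 102.3, 75.93 and 121.5 CPM in VF IFN, 78.74, 67.03, 55.13 and 56.7 CPM in VF AZA, 49.89, 43.09, 46.57 and 83.59 CPM in VF COMBO, and 332.9, 252.3, 92.29 and 473.6 CPM in VF vehicle. AZA and COMBO did not overlap vehicle, and 3 of 4 IFN libraries exceeded vehicle library 3. Its log2 fold changes were -1.49 ± 0.29 (SE) in IFN, -2.16 ± 0.30 in AZA and -2.36 ± 0.30 in COMBO (adjusted p = 0.00249, 0.000236 and 7.41e-06, edgeR). Scarna9, another guide to U2, had 7.665, 5.275, 1.679 and 10.77 CPM in VF COMBO, against 14.18, 18.23, 12.99 and 18.39 CPM in VF vehicle. These groups did not overlap and VF vehicle library 3 did not stand apart from the other vehicle libraries, and Scarna9 had a log2 fold change of -1.33 ± 0.40 (SE; adjusted p = 0.036, edgeR). That call was lost when VF vehicle library 1, 2 or 4 or VF COMBO library 2 or 3 was left out. Scarna10, a guide to U5, was not called in any of the 3 comparisons, with 26.76 to 73.73 CPM over the treated VF libraries, against 31.34, 518.5, 51.89 and 19.14 CPM in VF vehicle.

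Among the spliceosomal RNAs, Rnu5g was the member called, lower in AZA and COMBO, with 1.033, 27.63, 1.399 and 1.562 CPM in VF vehicle libraries 1 to 4. The U1 rows Rnu1a1 and Rnu1b6, the U2 row Rnu2-10 and the minor-spliceosome rows Rnu11 and Rnu12 had means between 0.7791 and 2.931 CPM over the 31 libraries and were not called in these 3 comparisons.

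**Figure D4:**
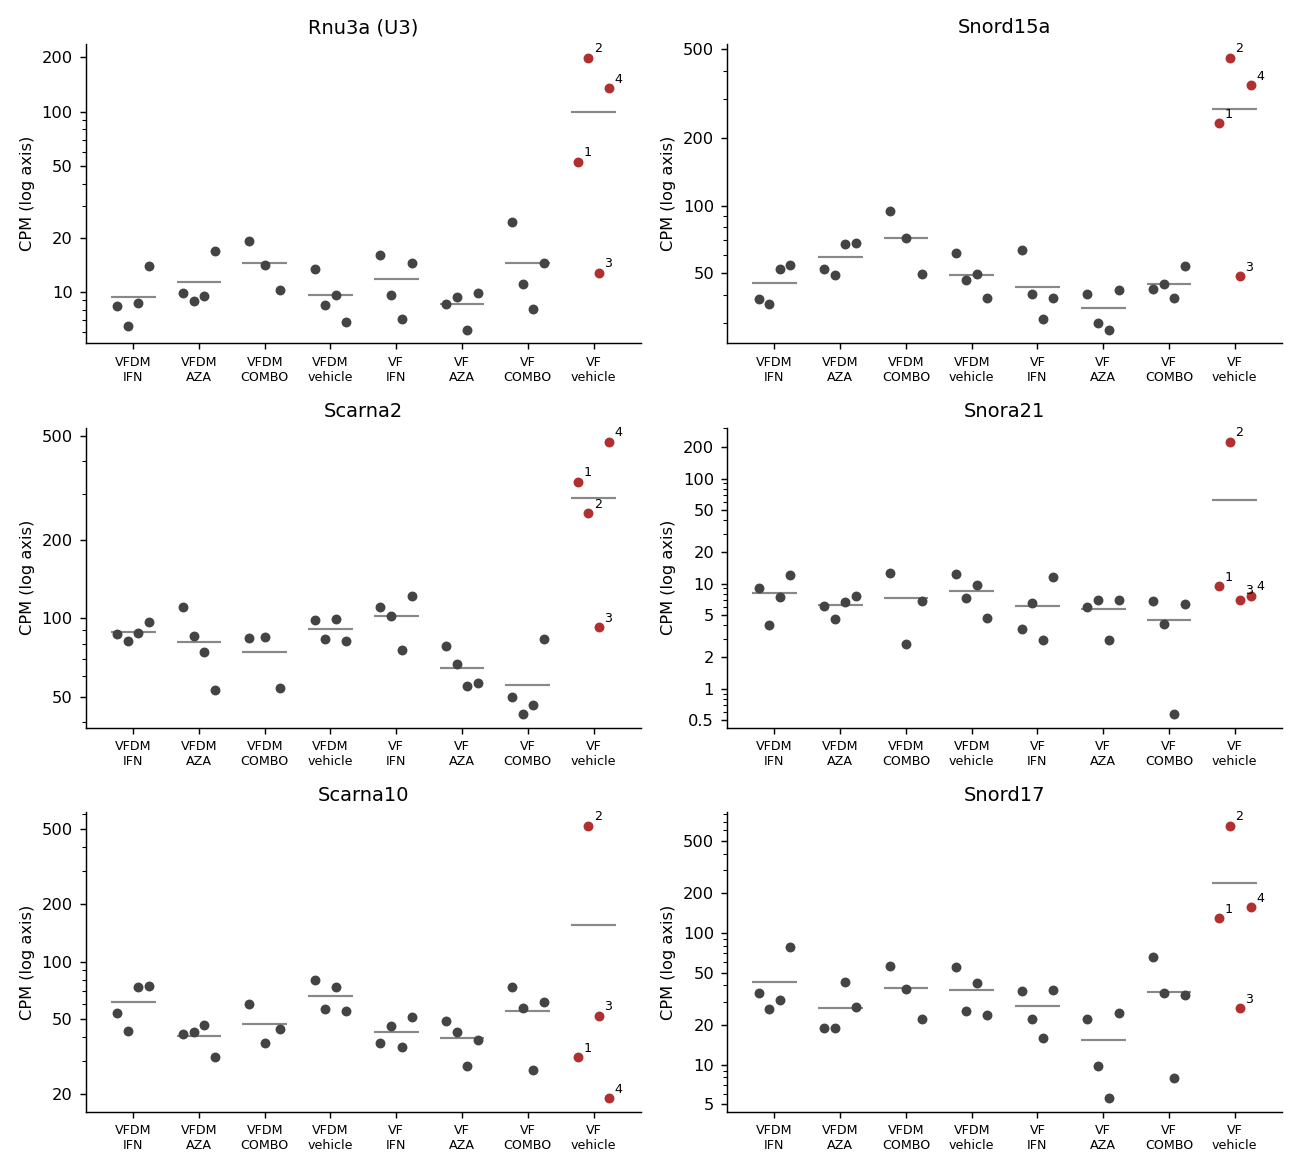
CPM (log axis) of 6 members in each library, with groups along the x axis, 1 point a library and a line at each group mean; VF vehicle libraries are in red with their replicate numbers. For Rnu3a, Snord15a, Snord17 and Scarna2 the VF vehicle libraries 1, 2 and 4 are above all others, whereas for Snora21 and Scarna10 only library 2 is.

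The number of calls turned on single libraries, and leaving out vehicle library 2 gave the lowest count in each comparison. Without it, 9 members (6 loci) were called lower in VF IFN, 10 (7 loci) in AZA and 11 (8 loci) in COMBO, and each was among those called with it. The loci called in all 3 comparisons without it were Rnu3a, Rnu3b1, Rnu3b3, Scarna2, Snord15a and Snord15b, to which AZA added Snord17, and COMBO added Snord55 and Snord82. No H/ACA RNA was among them. In AZA the count was also 11 without VF AZA library 2 and 11 without VF AZA library 3, and 26 without vehicle library 3. Without vehicle library 2, the members' medians were -0.0868, -0.462 and -0.635 on the log2 scale in IFN, AZA and COMBO. With library 3 as the lone VF vehicle library, 0 members were called in any of the 3 comparisons, and the medians were -0.0177, -0.524 and -0.247; in that fit, chosen after seeing the data, the lone library is assumed to vary like the other groups. The AZA and COMBO counts also fell to 0 each by limma voom with quality weights, to 0 each without the libraries under 20000 detected rows, which left 2 VF AZA libraries and 1 VF COMBO library, assumed to vary like the other groups, and to 0 and 1 when only the compared groups were fitted. The IFN count was 33, 28 and 5 under these 3 settings.

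**Figure D5:**
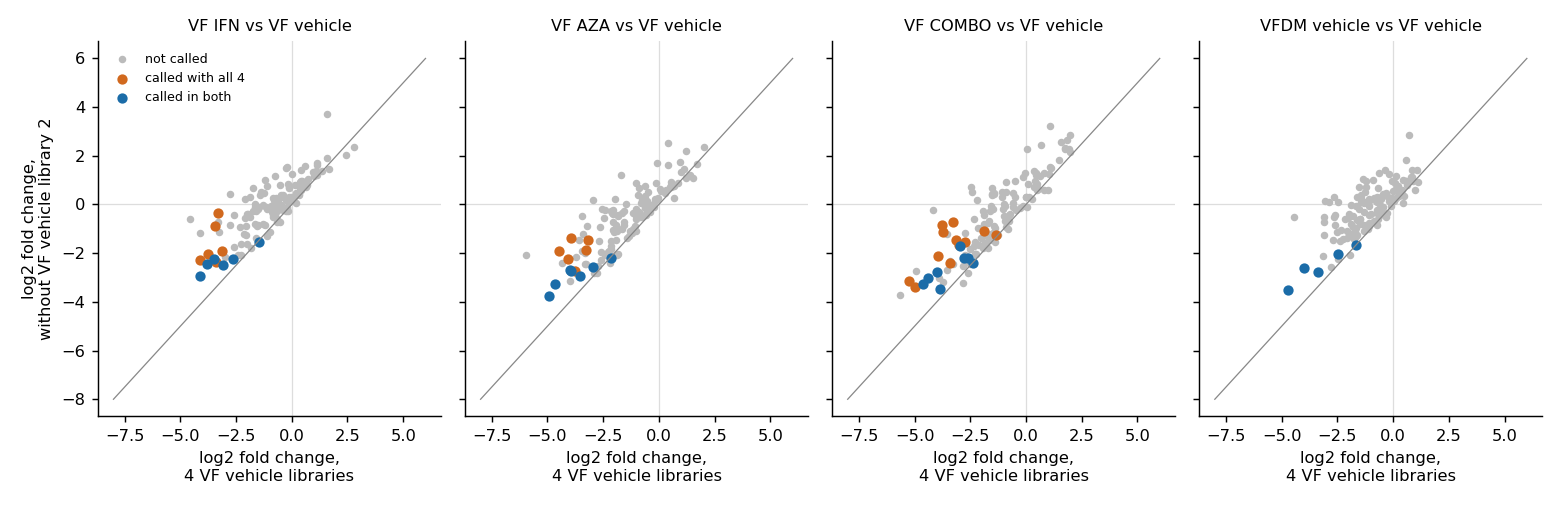
Log2 fold change of each tested member with all 4 VF vehicle libraries (x axis) and without library 2 (y axis) in 4 comparisons with VF vehicle, with the line of equal values. Most points lie above the line, nearer 0 without library 2, and the members called in both fits (blue) are Rnu3a, Rnu3b1, Rnu3b3, Scarna2 and Snord15a in every panel, with a few more in the 3 treatment panels.

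Snord55 and Snord82, short box C/D RNAs, fell in COMBO with and without vehicle library 2. Snord82 had 0.2117, 0.2532, 0.3357 and 1.14 CPM in VF COMBO, against 3.501, 29.2, 4.269 and 4.454 CPM in VF vehicle, with no overlap (log2 fold change -4.39, adjusted p = 0.00395, edgeR). Snord55 had 0.0847, 0.2532, 0.09592 and 1.59 CPM in VF COMBO, against 3.903, 12.37, 2.834 and 11.05 CPM in VF vehicle (log2 fold change -3.86, adjusted p = 0.0184, edgeR). Here vehicle library 3 was above every COMBO library too. VF COMBO libraries 1, 2 and 3 were among the 8 libraries with fewer than 20000 detected rows, and a median of 86 members reached 10 counts in VF COMBO libraries, against 116 in VF vehicle libraries.

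In vehicle-treated cells, Dnmt3a-deleted against Dnmt3a-intact, the U3 RNAs, Snord15a and Scarna2 were lower in VFDM. Of 144 members, 8 (5.56%, 5 loci: Rnu3a, Rnu3b1, Rnu3b3, Scarna2 and Snord15a) were called lower and none higher, where 0.956% of all tested rows were called, 0.171% higher and 0.785% lower. Snord15a had 61.19, 46.43, 49.34 and 38.84 CPM in VFDM vehicle, against 232.9, 457.1, 48.34 and 344.9 CPM in VF vehicle (log2 fold change -2.47 ± 0.38, SE; adjusted p = 0.000884, edgeR). Scarna2 had 98.98, 83.54, 99.1 and 81.82 CPM, against 332.9, 252.3, 92.29 and 473.6 CPM (log2 fold change -1.66, adjusted p = 0.00285, edgeR). Rnu3a had 13.4, 8.516, 9.662 and 6.838 CPM, against 52.86, 199.6, 12.79 and 134.7 CPM (log2 fold change -3.38, adjusted p = 0.000433, edgeR). In each of the 3 RNAs VF vehicle library 3 lay inside the VFDM range, and the other VF vehicle libraries lay above it. The same 5 loci were called without VF vehicle library 2, 0 members were called with library 3 as the lone VF vehicle library, and 19 were called without library 3. The members' median log2 fold change was -1.07, against -0.006 for all rows. The summed LT-HSC markers were 2498 to 2813 CPM in VFDM vehicle, against 1888 to 2105 CPM in VF vehicle, and their part in these calls was not tested. The VF vehicle libraries are the same as in the treatment comparisons, so the 4 comparisons are not independent.

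Across the 3 comparisons of the genotypes under the same drug, the calls came to 1 member in all. VFDM IFN against VF IFN gave 0 called members, with 0 at an unadjusted p under 0.05, where 0.00902% of all rows were called. VFDM AZA against VF AZA gave 0, with 5 at an unadjusted p under 0.05, where 0.74% of all rows were called, 0.636% higher and 0.104% lower. VFDM COMBO against VF COMBO gave 1, Snord95, where 5.11% of all rows were called, 1.2% higher and 3.91% lower. By DESeq2 the member counts of VFDM COMBO against VF COMBO came to 4, and by limma voom to 0.

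The drug responses of VFDM cells were compared with those of VF cells by an interaction term. For AZA, 8 members (5.56%, 5 loci) had a higher log2 response in VFDM than in VF and none a lower one, where 0.582% of all rows were called, 0.564% higher and 0.018% lower. They were the same 5 loci that were lower in VFDM vehicle than in VF vehicle, and the difference was 3.23 ± 0.52 for Snord15a (SE; adjusted p = 0.00114, edgeR) and 1.99 ± 0.41 for Scarna2 (adjusted p = 0.0117, edgeR). For COMBO, 11 members (7.64%, 7 loci) were higher, where 3.74% of all rows were called, 1.25% higher and 2.49% lower, and the additions were Rnu3b4 and Snord14d, a box C/D RNA overlapping an exon of Hspa8. For IFN, 0 members were called and 21 had an unadjusted p under 0.05, where 0.0% of all rows were called. DESeq2 called 5 there, and 8 were called when VF vehicle library 3 was left out. By limma voom and without libraries under 20000 detected rows, the AZA count was 0 and 0 and the COMBO count 0 and 1; the second setting left 2 libraries each of VFDM AZA, VFDM COMBO and VF AZA and 1 of VF COMBO. Every interaction contains the VF vehicle libraries, and with library 3 as the lone VF vehicle library 0 members were called in each.

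In the drug comparisons within VFDM cells, 1 member was called. All groups shared an estimate of the spread, including groups in which the members varied more than in VFDM vehicle. Their median coefficient of variation (SD over mean) was 37.2%, 58.2%, 83.3% and 81.0% in VFDM vehicle, IFN, AZA and COMBO. It was 92.6%, 31.7%, 97.3% and 107% in VF vehicle, IFN, AZA and COMBO. A missing call therefore does not show an unchanged level. VFDM IFN against VFDM vehicle gave 0 called members and 0 at an unadjusted p under 0.05, where 0.965% of all rows were called, 0.916% higher and 0.0496% lower, with a member median of 0.03. VFDM AZA gave 0 and 0, where 0.925% of all rows were called, 0.852% higher and 0.0722% lower, with a member median of -0.04. In each of these 2 comparisons limma voom called 1 member and DESeq2 called 0. VFDM COMBO gave 1 lower member, Snord95 (0.694% of members), where 16.0% of all rows were called, 5.52% higher and 10.5% lower, so the members' share was far below that of all rows. Their median was 0.19, against -0.08 for all rows, and 9 members had an unadjusted p under 0.05. DESeq2, limma voom and a fit of the compared groups alone each called more than 1 member there.

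Snord15a shows the spread behind these counts, with 38.49, 36.43, 52.04 and 54.41 CPM in VFDM IFN, 52.01, 48.98, 67.65 and 68.42 CPM in VFDM AZA, 94.13, 71.84 and 49.67 CPM in VFDM COMBO, and 61.19, 46.43, 49.34 and 38.84 CPM in VFDM vehicle. All 4 groups overlapped. Scarna2 ran from 81.89 to 96.58 CPM in VFDM IFN, 53.06 to 110.5 CPM in AZA, 54.31 to 84.67 CPM in COMBO and 81.82 to 99.1 CPM in vehicle, again with overlap. The scaRNA sum was 173.0 to 226.5 CPM in VFDM IFN, 126.2 to 201.5 CPM in AZA, 148.4 to 207.6 CPM in COMBO and 182.6 to 233.6 CPM in vehicle.

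Snord95, a methylation guide to the large-subunit ribosomal RNA, had 0, 0 and 0.03136 CPM in VFDM COMBO libraries 2, 3 and 4, against 0.8561, 1.183, 1.23 and 0.8416 CPM in VFDM vehicle and 0.2117, 4.347, 0 and 1.44 CPM in VF COMBO. This was 1 count in total over the VFDM COMBO libraries, against 170 in VFDM vehicle and 156 in VF COMBO. The ratio of VFDM COMBO to VFDM vehicle was 0.0121, with an exact 95% interval of 0.000305 to 0.0683 that covers counting error only. The groups did not overlap for VFDM vehicle but did for VF COMBO. The adjusted p was 0.0214 against VFDM vehicle and 0.0353 against VF COMBO by edgeR. The first call was lost without VFDM COMBO library 2 or 3, and the second without VF COMBO library 2 or VFDM COMBO library 2, 3 or 4. Snord95 was also at 0 counts in 3 libraries of other groups. Its host Rack1, a ribosomal protein gene, had 678.2 ± 125.5 CPM in VFDM COMBO and 584.8 ± 22.57 CPM in VFDM vehicle (SD, n = 3 and 4; log2 fold change 0.21, adjusted p = 0.359, edgeR).

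The members varied more between libraries of a group than all tested rows did. Members and other rows were not matched for level, and only 21 of the 145 members had 10 or more counts in every library. The median coefficient of variation was 92.6% for members and 33.7% for all tested rows in VF vehicle, and in the remaining groups it ran from 31.7% (VF IFN) to 107% (VF COMBO) for members and from 17.1% (VFDM vehicle) to 56.4% (VF COMBO) for all rows.

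Some genes that hold these RNAs changed as well, in both directions. Of the 86 genes that contain a member on the same strand, 1 was higher and 8 lower in VF IFN, 1 and 7 in VF AZA, 7 and 10 in VF COMBO, and 0 and 5 in VFDM vehicle against VF vehicle, where 2.43%, 1.2%, 8.29% and 0.956% of all tested rows were called in either direction. Whether hosts and members differ in this was not tested. Rps3, a small-subunit ribosomal protein gene that contains Snord15a and Snord15b, had 658.7 ± 140.3 CPM in VF IFN and 1096 ± 533.3 CPM in VF vehicle (SD, n = 4 each; log2 fold change -0.73, adjusted p = 0.0306, edgeR). Its log2 fold change was -0.76 in VF COMBO (adjusted p = 0.0125, edgeR). Snx5, a sorting nexin gene that contains Snord17, went the other way from its snoRNA in VF COMBO, with 253.4 ± 21.93 CPM against 171.1 ± 32.18 CPM in VF vehicle (log2 fold change 0.57, adjusted p = 0.00232, edgeR). Cep295, which contains Scarna9, likewise was higher in VF COMBO (log2 fold change 0.72, adjusted p = 0.00572, edgeR), where Scarna9 was lower. Rcc1 and Rpl23, the hosts of Snora73b and Snora21, were not called in VF IFN or VF COMBO. The fit held no term for the level of the host, so the part of host reads in the members' counts was not tested. Of members with a host, 12 of 66 intronic rows and 1 of 62 exon-overlapping rows were called in VF IFN, against 3 of 16 without a host. The counts in the same order were 11, 1 and 5 in VF AZA and 16, 5 and 4 in VF COMBO. Both annotated rows of Rnu3b1, Rnu3b3 and Rnu3b4, copies of identical sequence, are among the intronic calls each time. A difference by position was not tested.

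Some genes of the proteins that bind and assemble these RNAs were higher in COMBO, the treatment in which the most rows of the whole table were called. Across 84 tested genes of snoRNP proteins, assembly factors, Cajal body factors, processing enzymes and ribosomal RNA processing partners, 13 were higher and 0 lower in VFDM COMBO, where 5.52% of all tested rows were higher and 10.5% lower, and 10 were higher and 1 lower in VF COMBO, where 4.16% were higher and 4.13% lower. The counts were 2 and 0 in VF IFN, 1 and 1 in VF AZA, 0 and 1 in VFDM vehicle against VF vehicle, and 0 in both directions in VFDM IFN and VFDM AZA. In VFDM COMBO, 3 of 5 box C/D core proteins rose. Fbl, fibrillarin, the methyltransferase of the complex, had 60.83 ± 14.72 CPM in VFDM COMBO and 34.38 ± 2.105 CPM in VFDM vehicle (SD, n = 3 and 4; log2 fold change 0.82 ± 0.22, SE; adjusted p = 0.00923, edgeR). The scaffold proteins Nop56 and Nop58 had log2 fold changes of 0.50 and 0.51 (adjusted p = 0.0264 and 0.0364, edgeR). Of 4 H/ACA core proteins, Dkc1, dyskerin, the pseudouridine synthase, rose, with 177.2 ± 29.84 CPM in VFDM COMBO and 118.7 ± 11.83 CPM in VFDM vehicle (log2 fold change 0.58, adjusted p = 0.0346, edgeR). The smallest p-values in VFDM COMBO belonged to Nop2, a methyltransferase of ribosomal RNA, Heatr1, a factor in early ribosomal RNA processing, and the exonuclease gene Xrn2, with log2 fold changes of 0.95, 0.83 and 0.74 (adjusted p = 0.000557, 0.000874 and 0.00146, edgeR). The core proteins of both complexes and Nolc1 were chosen after their values were seen. Nolc1, a nucleolar and Cajal body phosphoprotein, rose in VFDM COMBO and in VF COMBO (log2 fold change 0.99 and 0.71, adjusted p = 0.00276 and 0.0403, edgeR). VFDM COMBO libraries also held more erythroid marker counts, with a summed 2348 to 20940 CPM over 12 genes, against 247.6 to 1219 CPM elsewhere, more neutrophil marker counts, with 644.5 to 1609 CPM over 9 genes, against 18.61 to 585.7 CPM elsewhere, and fewer LT-HSC marker counts, with 1062 to 1230 CPM, against 1442 to 2813 CPM. The part of those marker differences in the protein-gene changes was not tested.

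Among other small structured RNAs, transcribed from promoters of their own and no members, some were also lower than in VF vehicle. Of 11 tested rows, 7 were lower in VF IFN, 3 in VF AZA, 7 in VF COMBO and 1 in VFDM vehicle against VF vehicle, where 1.16%, 0.902%, 4.13% and 0.785% of all tested rows were called lower. Their median log2 fold changes were -3.06, -2.60, -2.57 and -2.36. None was called in the drug comparisons within VFDM. Rmrp, the RNA of the ribosomal-RNA-processing enzyme RNase MRP, had 59.15 ± 26.82 CPM in VF IFN and 958.7 ± 1270 CPM in VF vehicle (SD, n = 4 each; log2 fold change -4.02, adjusted p = 0.00632, edgeR), in an annotation that gives it 2 rows.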

How the data were processed

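The authors deposited whole-number counts per gene of 31 libraries. Per the submitters' processing notes, reads were checked with FastQC 0.11.5, aligned to mm10 with STAR 2.7.10a and counted with featureCounts, with R 4.3.0; annotation, strand setting and handling of multiply matching reads are stated by no source used here. Per the labels' protocols, RNA came from PicoPure extraction and SMART-Seq Stranded libraries. Positions and sequences came from GENCODE vM21 on GRCm38.

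Rows passing edgeR's filterByExpr (minimum count 10) were TMM-scaled and fitted with edgeR 4.0.16 (R 4.3.3), a quasi-likelihood model with 1 mean per group over all libraries, for 13 comparisons. P-values were Benjamini-Hochberg adjusted over 22172 rows (threshold 0.05), and SE is the log2 fold change over the root of F. The fit was run on simulated counts, in which each row kept the same level across libraries apart from changes planted in VF IFN. No simulated library had an excess of the members like that seen in VF vehicle, so that situation was not tested. Alternatives used DESeq2 1.42.0, limma 3.58.1 voom, other scalings, filters and library sets. Share intervals (Wilson, 95%) span counting error only. Named members are the 10 highest per kilobase, the 3 highest of each class, up to 8 called members a comparison by p, those beside the count floor and those that turn on 1 library. The members and lists were chosen with earlier results of these data known.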

Additional observations from a re-analysis of the deposited data

Results flagged for a closer look

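Of 168 series of 4 libraries checked, 24 (14.3%) held a library far from the other 3 by Dixon's criterion. The rate of about 5% by chance holds for independent, normally distributed values, so it cannot be compared with this share. Some members were named for a high mean over these same libraries, which an extreme library raises. Summed classes were checked beside their own members. A series whose other 3 values are equal, as for Rnu7, meets the criterion whatever the size of the remaining value. VF vehicle library 2 was that library in 8. Its CPM was 518 for Scarna10 (others 19.1 to 51.9), 191 for Scarna13 (others 15.4 to 39.1), 282 for Snora74a (others 6.83 to 21.2), 224 for Snora21 (others 7.05 to 9.47), 72.0 for Snora81 (others 3.04 to 8.73), 105 for Snora73a (others 4.93 to 16.7) and 101 for Snora73b (others 3.05 to 17.3). Its summed Snora level was 1240 CPM, against 108 to 129 CPM in the other VF vehicle libraries.

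Library 4 of VFDM IFN was apart for Snord17 with 78.7 CPM (others 26.3 to 34.8), for Rnu3b3 with 18.1 CPM (others 6.15 to 6.59) and for the summed Rnu rows with 91.9 CPM (others 39.1 to 45.5). Scarna2 had 83.6 CPM in VF COMBO library 4, with the others between 43.1 and 49.9. Scarna13 had 41.7 CPM in VF AZA library 1, with the others between 17.3 and 18.7. Scarna9 had 9.82 CPM in VFDM vehicle library 3, with the others between 6.25 and 6.62. Rnu3a had 16.9 CPM in VFDM AZA library 4, with the others between 8.94 and 9.91. Snord95 had 5.13 CPM in VFDM AZA library 3, with the others between 0.567 and 1.26. Snora81 had 0 CPM in VF AZA library 3, with the others between 6.25 and 7.51. Members near the count floor made up the rest, each high in 1 library with the others at or near 0. They were Snord92 in VF AZA 4 (0.287 CPM) and VF COMBO 4 (0.24), Snord38a in VF COMBO 4 (0.15), and Rnu7 in VF AZA 4 (0.223), VF COMBO 4 (0.21), VFDM vehicle 3 (0.22) and VFDM AZA 4 (0.605).

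The edgeR interaction term of drug and genotype, with Benjamini-Hochberg adjustment, was called for a few members. For AZA, the log2 response in VFDM minus that in VF was 3.23 for Snord15a, 3.79 for Rnu3a, 5.37 for Rnu3b3, 4.36 for Rnu3b1 and 1.99 for Scarna2, with adjusted p from 0.00114 to 0.0117. For COMBO it was 3.15 for Snord15a, 4.84 for Rnu3b1, 3.39 for Rnu3a, 5.11 for Rnu3b3, 2.07 for Scarna2, 4.03 for Snord14d and 3.89 for Rnu3b4, with adjusted p from 0.000743 to 0.048. All of these contain the VF vehicle libraries, of which 1, 2 and 4 stand apart. In VFDM vehicle against VF vehicle, the log2 fold changes were -2.47 (Snord15a), -3.38 (Rnu3a), -4.73 (Rnu3b3), -4.01 (Rnu3b1) and -1.66 (Scarna2). VFDM AZA against VF AZA gave 0 called members, and VFDM COMBO against VF COMBO gave 1, Snord95.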

How the results depend on the processing

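Scaling by DESeq2's size factors or protein-coding rows and no filter kept every count of called members within 1.5 times its value. Other settings did not. For VF IFN, AZA and COMBO against VF vehicle (16, 17 and 25), limma voom with quality weights gave 33, 0 and 0, leaving out libraries under 20000 detected rows (1 VF COMBO and 2 VF AZA libraries stay) gave 28, 0 and 0, and fitting the compared groups alone gave 5, 0 and 1. DESeq2 gave 31 in AZA and 40 in COMBO. For VFDM vehicle against VF vehicle (8), DESeq2 gave 20, voom 23, the libraries with 20000 detected rows 18 and the groups alone 2. For VFDM COMBO against VFDM vehicle (1) the same settings gave 4, 2, 6 and 7. Voom gave 1 in VFDM IFN and 1 in VFDM AZA, and the groups alone gave 1 in VFDM AZA. For VFDM COMBO against VF COMBO (1), DESeq2 gave 4, voom 0 and the groups alone 0. For the AZA and COMBO interactions (8 and 11), DESeq2 gave 13 and 22, voom 0 and 0, the libraries with 20000 detected rows 0 and 1, and the groups alone 3 and 3. DESeq2 gave 5 in the IFN interaction (0).

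The remaining settings were chosen after seeing the data. With library 3 as the lone VF vehicle library, the counts were 0 in VF IFN, AZA and COMBO, in VFDM vehicle and in the 3 interactions. The log2 fold changes then reversed for Rnu3b3 in VF IFN (0.0596) and VF COMBO (0.22), Rnu3a in VF COMBO (0.19) and Snord15a in VFDM vehicle (0.0288). Without VF vehicle library 2, DESeq2 gave 8 in VF IFN and 2 in the IFN interaction, and voom gave 31 in VF IFN, 10 in VF COMBO, 30 in VFDM vehicle, 17 in the IFN interaction and 5 in the COMBO interaction. The cause of these shifts was not tested.

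Leaving out 1 library at a time gave 9 to 20 calls in VF IFN, 10 to 26 in VF AZA, 11 to 32 in VF COMBO, 8 to 19 in VFDM vehicle, 0 to 3 in VFDM COMBO against VFDM vehicle, 0 to 6 in VFDM COMBO against VF COMBO, and 0 to 8, 6 to 10 and 8 to 18 in the IFN, AZA and COMBO interactions. It gave 0 in VFDM IFN and VFDM AZA against VFDM vehicle and against VF IFN and VF AZA. Same-numbered libraries of different groups correlated between -0.12 and 0.173 in their deviations from group means over all tested rows. Whether they share a batch is not in the labels and was not tested. With the replicate number as a block VFDM COMBO against VF COMBO had 0 calls. Of the named members' values, 347 kept direction and side of the threshold when 1 library was left out and 14 lost the call. Under other settings 269 did, 116 lost it and 4 reversed. For the summed share of counts of the members, the VF vehicle median was 2.704 times the median of the 27 other libraries, 3.303 times as a share of protein-coding counts, 3.465 times for members with 10 counts in all libraries and 2.474 times with 1 row a locus. Between 56 and 142 members reached 10 counts in a library, which limits what low members can show. The number was highest, at 142, in the library with the most counts, VF IFN library 4 (73910928). It did not follow the total counts alone: VF AZA library 3 had 61 with 31544083 counts and VFDM AZA library 2 had 108 with 17890277.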
